A study of Mus musculus with 4 samples.

Results

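A set of 37 mouse genes that copy DNA or prepare cells for it was followed across 4 cultured CD4 T cell populations. The genes were taken by symbol from a list of replication factors, enzymes of deoxynucleotide supply and regulators of entry into S phase. That list was chosen with earlier results of these data known. Of the 37, 36 have a probe set on the array, out of 18193 genes in all, and Chaf1a was not analysed here. A gene with several probe sets was read from the probe set with the highest mean log2 signal over the 4 arrays. All 4 populations were CD4 T cells of C57BL/6 mice aged 8 to 10 weeks, taken out of spleen and lymph nodes, and were sorted after culture with a GFP reporter of IL-17 and an APC stain of Foxp3. The exFoxp3Th17 population began as Foxp3+ CD4 T cells, was cultured under Th17 conditions and was sorted as IL-17+ Foxp3-. The Th17 population had the same culture and gate but began as naive CD4 T cells. The Treg population began as Foxp3+ CD4 T cells, was kept in IL-2 and was sorted as IL-17- Foxp3+. The Th0 population began as naive CD4 T cells, was cultured under Th0 conditions and was sorted as negative for both. Each population has 1 array, so every difference is between single arrays, with no spread between samples and no test. The sources used here do not give the number of animals behind an array.

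Before S phase, the origin recognition complex, Cdc6 and Cdt1 load the MCM helicase onto DNA, and Cdc45, the GINS complex and Mcm10 help to turn it into a working helicase. Polymerase alpha with its primase starts each strand, polymerases delta and epsilon extend it with the sliding clamp PCNA, and Fen1 and Lig1 trim and join the fragments of the lagging strand. Many of these genes are transcribed in late G1 under E2F factors, which is why their RNA is often read as a sign of proliferating T cells.

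The values are MAS5 signals on a linear scale. Signals below a floor of 12.1, the median of all non-control probe sets, were set to the floor before ratios were taken, and a call of higher or lower needed a difference of at least 2-fold with the brighter array above the floor. Foxp3 had a signal of 584.9 in Treg cells and lay below the floor on the other arrays, whereas the Il17a probe set lay below the floor on all 4. All 9 measured genes of the CD4 T cell list were above the floor on each array. Their summed signals were 15869 in exFoxp3Th17, 11711 in Th17, 10953 in Treg and 14483 in Th0 cells. Cd4 itself had signals of 98.1 in exFoxp3Th17, 81.2 in Th17, 48.3 in Treg and 109.6 in Th0 cells. Of 4 measured B cell markers 1, Cd79b, was above the floor, in exFoxp3Th17 (19.3) and Treg (55.6) cells. Of 6 myeloid markers 1, Csf1r, was above it on every array, at 12.6 to 23.4, and of 3 NK markers 1, Klre1, in Th17 cells, at 167.4; the remaining markers of these 3 lists lay below the floor on every array. Of the CD8 T cell markers, Cd8b1 had signals of 64.9 in exFoxp3Th17, 83.5 in Th17, 51.7 in Treg and 64.6 in Th0 cells. Cd8a lay at 11.1 to 14.3, on both sides of the floor. Summed over each of these lists, signals were 9.9 to 76.5 in exFoxp3Th17, 17.0 to 172.5 in Th17, 8.0 to 66.7 in Treg and 14.0 to 75.7 in Th0 cells. The arrays also differed in sex-linked RNA: Xist had a signal of 3766 in exFoxp3Th17 cells and of 7.4 to 10.8 on the other arrays, and Eif2s3y of 4.7 in exFoxp3Th17 cells and 654.5 to 875.8 on the others. Every comparison with exFoxp3Th17 crosses that difference, and the part of sex-linked RNA or of these markers in the results was not tested.

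All 36 measured replication genes had their lowest signal in exFoxp3Th17 cells. Treg cells were highest for 31 of the 36 and Th0 cells for 5, namely Pola2, Pold1, Pole, Tyms and E2f1. Over the 11769 genes above the floor on at least 1 array, exFoxp3Th17 was the lowest for 23.9%, Treg the highest for 21.1% and Th0 the highest for 27.6%. For 22 of the 36 genes the exFoxp3Th17 signal was 2-fold or more below each of the other arrays, against 3.2% of all genes. With signals held at the floor, the fold between the highest and lowest array ranged between 1.99 for Ccne1 and 8.46 for Cdc6, with a median of 4.01. For Orc1, Tyms and E2f1, below the floor in exFoxp3Th17 cells, this fold is a lower bound and may be wider. In bulk RNA, fewer cells in S phase and less of these transcripts per cell cannot be told apart.

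**Figure D1:**
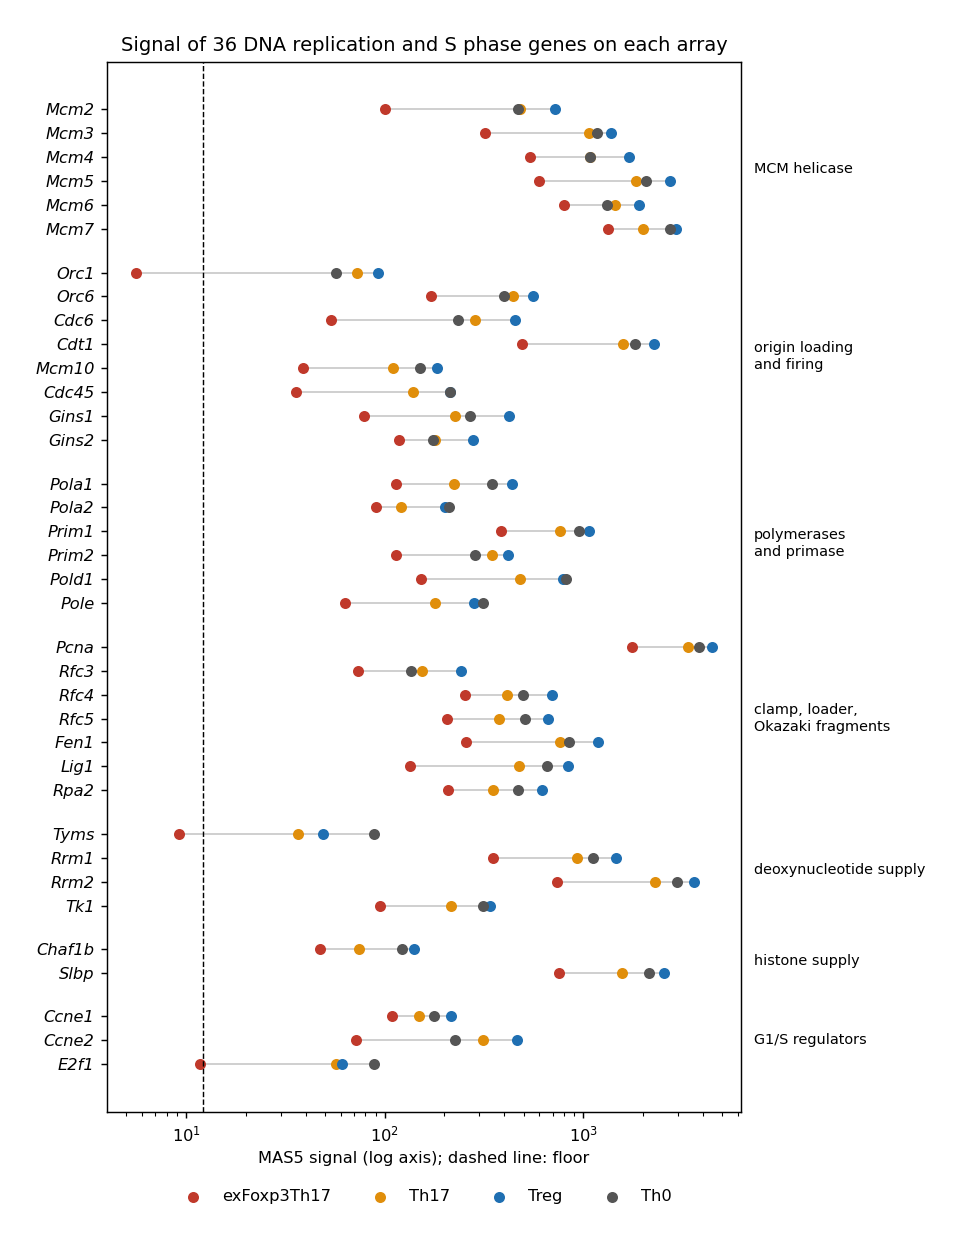
MAS5 signal (log axis) of the 36 measured replication and S phase genes, grouped by role, with 1 point for each of the 4 arrays and a dashed line at the floor of 12.1. The exFoxp3Th17 point is the leftmost in every row, and Orc1, Tyms and E2f1 lie below the floor there; positions of different genes along the axis are not comparable.

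Against Th17 cells, 23 of the 36 genes were lower in exFoxp3Th17 cells, none was higher and 13 were within 2-fold, where 7.27% of all genes were lower and 7.48% higher. The median log2 ratio of the 36 was -1.46, beside 0.03 over all genes. The 13 uncalled genes also lay below 0, at log2 ratios of -1.0 to -0.41. Against Treg cells, 35 of the 36 were lower and Ccne1 fell just short of 2-fold, where 9.94% of all genes were lower and 11.3% higher. The median log2 ratio was -1.98, beside 0.02 over all genes. At a 3-fold threshold, 14 genes were lower than in Th17 cells and 26 lower than in Treg cells, against 2.9% and 4.58% of all genes. Both comparisons use the same exFoxp3Th17 array.

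Few of the genes were called between Th17 and Th0 cells. Tyms alone was lower in Th17 cells and the other 35 were within 2-fold, where 6.88% of all genes were lower and 8.22% higher. The median log2 ratio was -0.27 beside -0.02 over all genes. In Treg cells against Th0 cells, 1 gene, Ccne2, was higher and 35 were within 2-fold, where 5.56% of all genes were higher and 4.95% lower. The median was 0.34 beside -0.01. At 3-fold no replication gene was called lower in Th17 than in Th0, against 2.34% of all genes, or higher in Treg than in Th0, against 2.56%.

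**Figure D2:**
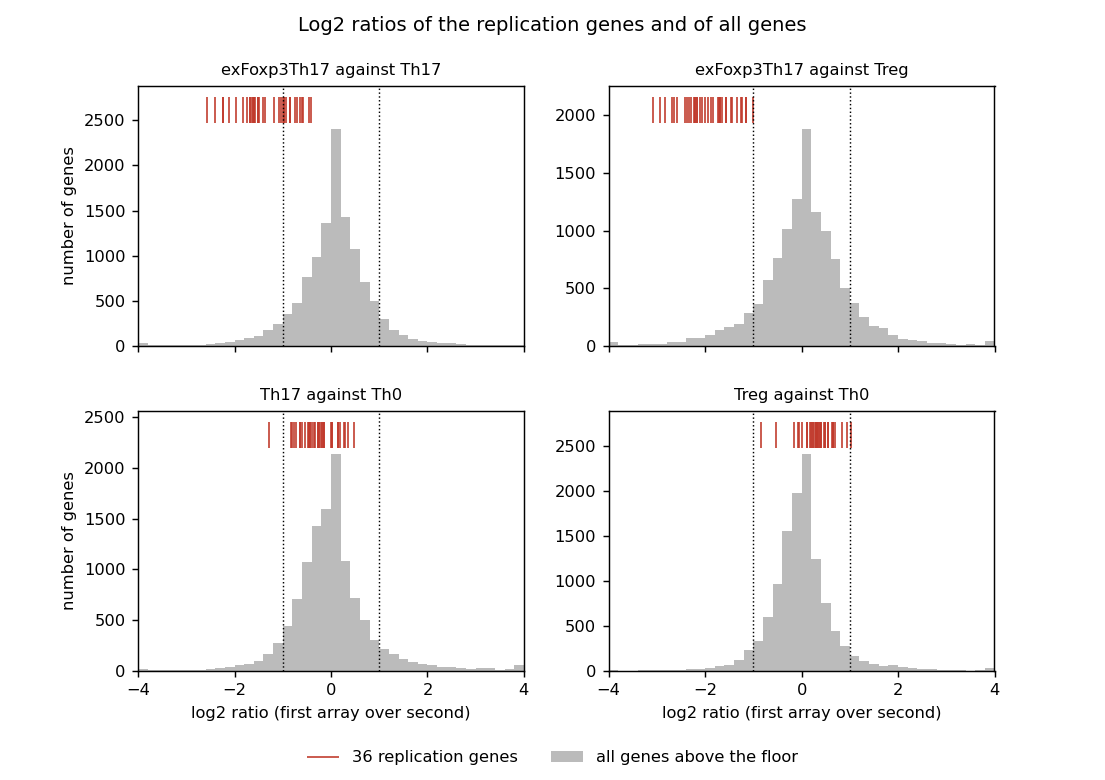
Number of genes by log2 ratio (grey bars, 11769 genes above the floor, the outermost bars holding all larger values) in the 4 comparisons, with 1 red tick for each of the 36 replication genes and dotted lines at 2-fold. All ticks lie left of 0 in both comparisons of exFoxp3Th17, with medians of -1.46 against Th17 and -1.98 against Treg, while in the lower panels they spread around medians of -0.27 and 0.34.

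The MCM helicase, the ring that unwinds DNA ahead of the polymerases, has 6 subunit genes in the list. Mcm2 had a signal of 100.7 in exFoxp3Th17, 477.8 in Th17, 718.4 in Treg and 468.0 in Th0 cells. It was 4.75-fold lower in exFoxp3Th17 than in Th17 cells and 7.14-fold lower than in Treg cells, the widest separation of the 6, and its second probe set gave 2.55-fold and 4.5-fold. Mcm3 and Mcm5 were lower than in Th17 cells as well, by 3.34-fold (319.2 in exFoxp3Th17 against 1067 in Th17) and 3.07-fold (601.1 in exFoxp3Th17 against 1848.0 in Th17). The other 4 probe sets of Mcm3 were lower too, 3 of them by 3.32-fold to 3.99-fold and the dimmest by 1.52-fold. Mcm4, Mcm6 and Mcm7 were uncalled against Th17 cells. Mcm4 lay just under the threshold (538.9 in exFoxp3Th17, 1076 in Th17, 1696 in Treg and 1075.0 in Th0 cells), and its other probe set was 3.06-fold lower. Mcm6 was 1.8-fold apart on its brightest probe set (802.5 in exFoxp3Th17 against 1446.4 in Th17). Its second probe set was 2.15-fold lower (606.7 in exFoxp3Th17 against 1303.6 in Th17). Mcm7 had the smallest difference of the 6, with signals of 1327 in exFoxp3Th17, 1992 in Th17, 2935 in Treg and 2728 in Th0 cells; all 4 of its probe sets were lower by 1.5-fold to 1.74-fold. Against Treg cells all 6 subunits were lower, by 2.21-fold for Mcm7 to 7.14-fold for Mcm2.

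The promoters of the listed genes were searched for the E2F element. It was spelled here as TTTCCCGC, TTTGGCGC, TTTCGCGC or TTTGCCGC on either strand, with overlapping matches counted as 1. RefSeq sequence (build GRCm38.p6) covering 250 bases before to 50 bases after the start site was at hand for 31 of the 37 genes, all but Mcm4, Gins1, Gins2, Prim2, Pole and Ccne2. A match was present for 11 of these 31 genes (35.5%), against 3.29% of 17491 protein-coding genes and 2.26% of all 32851 windows. The 11 are Mcm3, Mcm5, Mcm6, Mcm7, Orc1, Cdc6, Cdt1, Pola1, Pold1, Rfc3 and Lig1. The CCAAT box, searched as CCAAT on both strands, was present for 18 of the 31 (58.1%), against 42.3% of protein-coding genes. The element TTTGAA, part of the control of many mitotic genes, was present for 3 (9.68%), against 18.5%. Letters that match are a description and no evidence of binding. These shares describe the genes chosen for the list and were counted without the array values. The list itself was chosen with earlier results of these data known. The 3 stretches printed here each hold at least 1 match and end before the outermost start annotated for the gene, and they show what such an element looks like in place. They run 5′ to 3′ on the gene's strand with the E2F letters in capitals. The Mcm6 stretch is chr1:128359706-128359905 on the minus strand, that of Mcm5 is chr8:75109268-75109467 on the plus strand, and that of Rfc3 is chr5:151651209-151651408 on the minus strand.
Mcm6: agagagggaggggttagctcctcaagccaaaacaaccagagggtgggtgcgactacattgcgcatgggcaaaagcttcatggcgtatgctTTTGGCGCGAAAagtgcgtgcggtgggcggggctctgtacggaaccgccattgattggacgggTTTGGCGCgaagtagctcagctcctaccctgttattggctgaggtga
Mcm5: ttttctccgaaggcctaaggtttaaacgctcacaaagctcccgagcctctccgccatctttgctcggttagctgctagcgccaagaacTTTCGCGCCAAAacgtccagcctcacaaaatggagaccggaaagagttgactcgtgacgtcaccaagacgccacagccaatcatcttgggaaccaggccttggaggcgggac
Rfc3: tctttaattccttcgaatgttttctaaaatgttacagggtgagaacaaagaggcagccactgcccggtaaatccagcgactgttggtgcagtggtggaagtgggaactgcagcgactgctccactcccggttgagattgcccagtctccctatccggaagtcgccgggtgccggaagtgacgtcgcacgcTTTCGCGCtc
In Mcm6 and Mcm5, matches on opposite strands overlap to give a run of 12 capitals, TTTGGCGCGAAA in Mcm6 and TTTCGCGCCAAA in Mcm5, and Mcm6 holds a second match nearer its start. Of the 11 genes with a match, 8 were lower in exFoxp3Th17 than in Th17 cells, with a median log2 ratio of -1.67. Of the 19 measured genes without one, 11 were lower, with a median of -1.19. The ranges of the 2 sets overlapped (-2.58 to -0.59 with a match, -2.25 to -0.41 without). In this comparison 7.27% of all genes were lower, and whether the 2 sets differ was not tested.

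Genes that load the helicase and start it had 7 of 8 members lower in exFoxp3Th17 than in Th17 cells and all 8 lower than in Treg cells, with a median log2 ratio of -1.60 against Th17. Orc1, the ATPase subunit of the origin recognition complex, lay below the floor in exFoxp3Th17 cells (5.6) and had signals of 72.4 in Th17, 92.0 in Treg and 56.6 in Th0 cells. It was therefore at least 5.98-fold lower than in Th17 cells, and its second probe set, above the floor on every array, was 2.26-fold lower. Cdc6, which brings the helicase to the origin, had signals of 53.6 in exFoxp3Th17, 284.1 in Th17, 453.8 in Treg and 234.5 in Th0 cells. It was 8.46-fold lower than in Treg cells, the widest of the 33 genes above the floor on every array, and 5.3-fold lower than in Th17 cells. Cdt1, the partner of Cdc6 in loading, was 3.22-fold lower than in Th17 cells, at 492.8 in exFoxp3Th17, 1589 in Th17, 2275 in Treg and 1822 in Th0 cells. Orc6, another subunit of the origin recognition complex, was 2.58-fold lower than in Th17 cells (171.5 in exFoxp3Th17 against 442.1 in Th17).

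Among the factors that start the loaded helicase, Cdc45 was 3.9-fold lower than in Th17 cells and 5.96-fold lower than in Treg cells, with signals of 35.6 in exFoxp3Th17, 139.0 in Th17, 212.3 in Treg and 212.1 in Th0 cells. Its second, dim probe set barely separated exFoxp3Th17 from Th17 cells (15.7 in exFoxp3Th17 against 16.1 in Th17). Mcm10 and Gins1 were each 2.84-fold lower than in Th17 cells, Mcm10 at 38.9 in exFoxp3Th17 against 110.4 in Th17, and Gins1 at 79.1 in exFoxp3Th17 against 224.7 in Th17. Gins2 was the uncalled member of the role. Its brightest probe set gave 117.5 in exFoxp3Th17 against 179.3 in Th17, a 1.53-fold difference, while its other probe set was 3.03-fold lower (48.8 in exFoxp3Th17 against 148.1 in Th17).

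Of the polymerase and primase genes, 3 of 6 were lower in exFoxp3Th17 than in Th17 cells and all 6 lower than in Treg cells. Pold1, the catalytic subunit of polymerase delta, had signals of 151.7 in exFoxp3Th17, 481.0 in Th17, 788.0 in Treg and 818.9 in Th0 cells. Pole, the catalytic subunit of polymerase epsilon, ran in the same order, at 63.1 in exFoxp3Th17, 178.4 in Th17, 281.3 in Treg and 314.1 in Th0 cells. Against Th17 cells they were lower by 3.17-fold and 2.83-fold, and Prim2, the large primase subunit, by 3.02-fold (114.4 in exFoxp3Th17 against 345.8 in Th17). The second probe set of Prim2 fell just under the threshold, at 1.98-fold. Prim1 and Pola1, the catalytic subunits of primase and of polymerase alpha, lay just under the threshold at 1.96-fold and 1.95-fold. Pola2, a regulatory subunit of polymerase alpha, had the smallest difference from Th17 cells of the 36 genes. Its signals were 90.5 in exFoxp3Th17, 120.6 in Th17, 200.8 in Treg and 210.3 in Th0 cells. It was 1.33-fold apart from Th17 cells and 2.22-fold lower than in Treg cells.

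The clamp, its loader and the enzymes of lagging-strand maturation divided, with 3 of 7 lower than in Th17 cells and all 7 lower than in Treg cells. Pcna, the sliding clamp, had signals of 1765 in exFoxp3Th17, 3364 in Th17, 4454 in Treg and 3816 in Th0 cells, 1.91-fold below Th17 and 2.52-fold below Treg. Lig1, the ligase that seals the fragments, was 3.53-fold lower than in Th17 and 6.22-fold lower than in Treg cells (134.7 in exFoxp3Th17, 475.8 in Th17, 838.2 in Treg and 659.8 in Th0 cells). Fen1, the nuclease that trims them, was 2.97-fold lower than in Th17 cells, at 256.7 in exFoxp3Th17 against 763.5 in Th17. The clamp loader genes had smaller differences. Rfc3 was 2.09-fold lower than in Th17 cells on its brightest probe set and 2.19-fold on the other, while Rfc4, Rfc5 and the single-strand binding subunit Rpa2 were 1.63-fold, 1.81-fold and 1.69-fold apart and uncalled.

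All 4 genes of deoxynucleotide supply were lower in exFoxp3Th17 than in Th17 cells and than in Treg cells. Rrm2, the S phase subunit of ribonucleotide reductase, had signals of 738.0 in exFoxp3Th17, 2300.3 in Th17, 3611 in Treg and 2959 in Th0 cells. It was 3.12-fold lower than in Th17 cells, and its other 2 probe sets were 4.31-fold and 3.72-fold lower. Rrm1, the large subunit of the same enzyme, was 2.67-fold lower (349.4 in exFoxp3Th17 against 933.7 in Th17) and its second probe set 2.88-fold. Tk1, the cytosolic thymidine kinase, was 2.29-fold lower, at 94.5 in exFoxp3Th17, 216.2 in Th17, 338.7 in Treg and 311.5 in Th0 cells. Tyms, the thymidylate synthase, lay below the floor in exFoxp3Th17 cells (9.2) and had signals of 36.4 in Th17, 48.8 in Treg and 88.0 in Th0 cells. It was at least 3.0-fold lower than in Th17 cells, and its other 3 probe sets were below the floor in both.

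Slbp, which binds the end of histone messages and serves histone supply in S phase, was 2.06-fold lower than in Th17 cells and 3.34-fold lower than in Treg cells, with signals of 758.1 in exFoxp3Th17, 1560 in Th17, 2534 in Treg and 2135 in Th0 cells. Its second probe set was 1.58-fold lower than in Th17 cells, under the threshold (45.6 in exFoxp3Th17 against 72.2 in Th17). Chaf1b, a subunit of the chaperone that places histones behind the fork, was uncalled against Th17 cells (47.4 in exFoxp3Th17 against 74.3 in Th17) and 2.95-fold lower than in Treg cells.

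Among the 3 G1/S regulators, Ccne2 and E2f1 were lower in exFoxp3Th17 than in Th17 cells and Ccne1 was uncalled. Ccne2, a cyclin that activates Cdk2 at S phase entry, had signals of 71.9 in exFoxp3Th17, 312.9 in Th17, 461.0 in Treg and 226.0 in Th0 cells. It was 4.35-fold lower than in Th17 cells and 6.42-fold lower than in Treg cells. Ccne1, the other E-type cyclin, was uncalled in all 4 comparisons on its brightest probe set (108.6 in exFoxp3Th17, 149.6 in Th17, 216.6 in Treg and 176.6 in Th0 cells). Its second probe set gave 58.6 in exFoxp3Th17, 123.1 in Th17, 263.0 in Treg and 170.3 in Th0 cells, 2.1-fold and 4.49-fold lower than in Th17 and Treg cells, so the 2 probe sets differ on the call. E2f1, an activator of the genes above, had signals of 11.8 in exFoxp3Th17, 57.1 in Th17, 60.9 in Treg and 88.8 in Th0 cells, at least 4.72-fold lower than in Th17 cells. Its second probe set also placed exFoxp3Th17 lowest, at 17.8 against 52.4 in Th17, but set Th17 2.54-fold above Th0 (20.6), the opposite of the brightest one.

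As a description of noise within arrays, the log2 ratios of the 2 brightest probe sets of a gene differed with a robust SD of 0.38 for exFoxp3Th17 against Th17, over 4675 genes, and of 0.39 to 0.45 in the other comparisons. Of the 20 further probe sets above the floor of genes called lower than in Th17 cells, all 20 were lower and 14 by 2-fold or more. Against Treg cells these were 31 of 31 and 28. This bears on the probe sets and not on differences between cultures, sorts or animals.

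Within the protein complexes the subunit genes differed in their ratios. The other subunits were named after their values were seen. In the origin recognition complex, Orc1 and Orc6 had log2 ratios of at most -2.58 and of -1.37 in exFoxp3Th17 against Th17, while Orc2, Orc3, Orc4 and Orc5 lay at -0.23, -0.02, 0.03 and -0.05. Orc4 had signals of 381.7 in exFoxp3Th17, 374.0 in Th17, 360.1 in Treg and 305.3 in Th0 cells, within 2-fold across all 4 arrays. In polymerase delta, Pold1 and Pold2 were at -1.67 and -1.51 but Pold4, the smallest subunit, at 0.64; Pold4 was 2.16-fold higher than in Treg cells (435.3 in exFoxp3Th17 against 201.7 in Treg). Rpa1, the large subunit of the single-strand binding complex, was at 0.49, with Rpa2 and Rpa3 at -0.75 and -0.58. The clamp loader was the most even, its 5 genes lying between -1.07 and -0.55, and the 4 subunits of polymerase epsilon lay between -1.51 and -0.77.

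**Figure D3:**
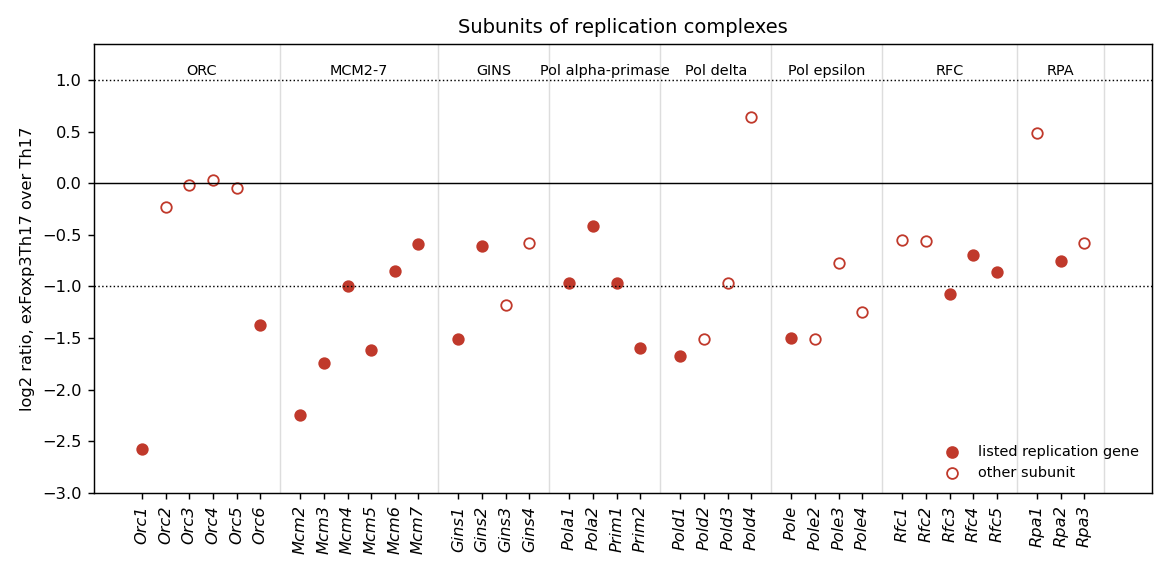
Log2 ratio of exFoxp3Th17 over Th17 for each subunit gene of 8 replication complexes (filled points, genes of the list; open points, other subunits), with dotted lines at 2-fold. Orc2 to Orc5 lie between -0.23 and 0.03 beside Orc1 at -2.58, a bound because Orc1 was below the floor, and Pold4 and Rpa1 lie above 0.

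Between the populations of naive origin, in Th17 against Th0, the log2 ratio was below 0 for 26 of the 36 genes and above it for 10. The median was -0.70 for polymerases and primase, -0.59 for histone supply, -0.44 for deoxynucleotide supply and -0.28 for the clamp, its loader and lagging-strand enzymes. It was -0.24 for the G1/S regulators, -0.09 for loading and firing and -0.07 for the MCM helicase. In this comparison the robust SD between the probe sets of a gene was 0.45, and whether the roles differ was not tested. Tyms was 2.42-fold lower in Th17 cells (36.4 in Th17 against 88.0 in Th0), and Pole, Pola2 and Pold1 followed uncalled at 1.76-fold, 1.74-fold and 1.7-fold. The Tyms call rests on 1 probe set. The next brightest gave 9.0 in Th17, below the floor, against 13.4 in Th0, and the rest lay below the floor on every array. The second probe set of Pold1 was 2.51-fold lower (110.8 in Th17 against 277.7 in Th0), as was that of Slbp by 2.49-fold, while their brightest probe sets were not called. Ccne2, Orc1 and Cdc6 had the highest ratios, uncalled at log2 0.47, 0.35 and 0.28.

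In Treg against Th0 cells, 31 of the 36 genes lay above 0 and 5 below. Ccne2 was 2.04-fold higher in Treg cells (461.0 in Treg against 226.0 in Th0), with Cdc6 next and uncalled at 1.94-fold (453.8 in Treg against 234.5 in Th0). Loading and firing had the highest median of the roles, 0.57, and polymerases and primase the lowest, 0.06. Tyms was 1.8-fold apart in the other direction, at 48.8 in Treg against 88.0 in Th0, and uncalled.

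Other genes of the fork were described by a separate list. Of its 38 further replication genes, 18 were lower in exFoxp3Th17 than in Th17 cells and none was higher. Over all genes 7.27% were lower and 7.48% higher in this comparison. The remaining 20 of the 38 were within 2-fold, 5 of the 38 had a ratio above 0, and the median log2 ratio of the 38 was -0.87. The nuclease-helicase Dna2 was 3.98-fold lower (59.8 in exFoxp3Th17 against 238.3 in Th17), Uhrf1, which recruits the maintenance methyltransferase to new DNA, 3.67-fold (149.8 in exFoxp3Th17 against 549.2 in Th17), the histone chaperone Asf1b 3.52-fold and the checkpoint mediator Clspn 2.91-fold. Against Treg cells 21 of the 38 were lower and 1, Pold4, higher, where 9.94% of all genes were lower and 11.3% higher. In nucleotide synthesis 6 of 14 further genes were lower than in Th17 cells and 8 uncalled, with a median of -0.95, and the mitochondrial enzyme Shmt2 was 3.22-fold lower. Among checkpoint and repair genes, 3 of 10 were lower, Chek1 (2.57-fold), Brca2 (2.49-fold) and Brca1 (2.18-fold), with a median of -0.49.

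The E2F and RB families were mixed. Of 12 genes, E2f7 and E2f8, the atypical repressors that are themselves E2F targets, were lower in exFoxp3Th17 than in Th17 cells by 3.55-fold and 3.05-fold. E2f7 had signals of 35.3 in exFoxp3Th17, 125.2 in Th17, 227.8 in Treg and 176.2 in Th0 cells. Rbl2, the pocket protein p130 of resting cells, was 2.1-fold higher (244.4 in exFoxp3Th17 against 116.3 in Th17), and Tfdp2, a dimer partner of E2F, 2.05-fold higher (265.9 in exFoxp3Th17 against 129.7 in Th17). The other 8 were uncalled, and the median of the 12 was -0.49. Over all genes 7.27% were lower and 7.48% higher in this comparison. Against Treg cells 5 of the 12 were lower and 1, Tfdp2, higher, where 9.94% of all genes were lower and 11.3% higher. Rbl2 was uncalled there, at 1.47-fold.

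Mitosis genes were lower in exFoxp3Th17 than in Th17 cells for 8 of 15, with a median of -1.02, where 7.27% of all genes were lower. Against Treg cells all 15 were lower, with a median of -1.77, where 9.94% of all genes were lower. Aurkb, Bub1, Cdk1 and Top2a led against Th17 cells, at 4.4-fold, 3.55-fold, 3.2-fold and 3.02-fold. In Th17 against Th0 cells 6 of the 15 mitosis genes were lower, with a median of -0.91, where the replication genes had 1 of 36 and a median of -0.27. Over all genes 6.88% were lower in this comparison. Plk1 was 2.75-fold lower (183.0 in Th17 against 504.0 in Th0) and Ccnb2 2.61-fold (679.7 in Th17 against 1777 in Th0). Whether the lists differ could not be tested with 1 array per population. Housekeeping genes had 1 of 8 lower in exFoxp3Th17 than in Th17 cells, the transferrin receptor Tfrc, with a median of -0.12, and the 9 CD4 T cell markers had none called and a median of 0.38.

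**Figure D4:**
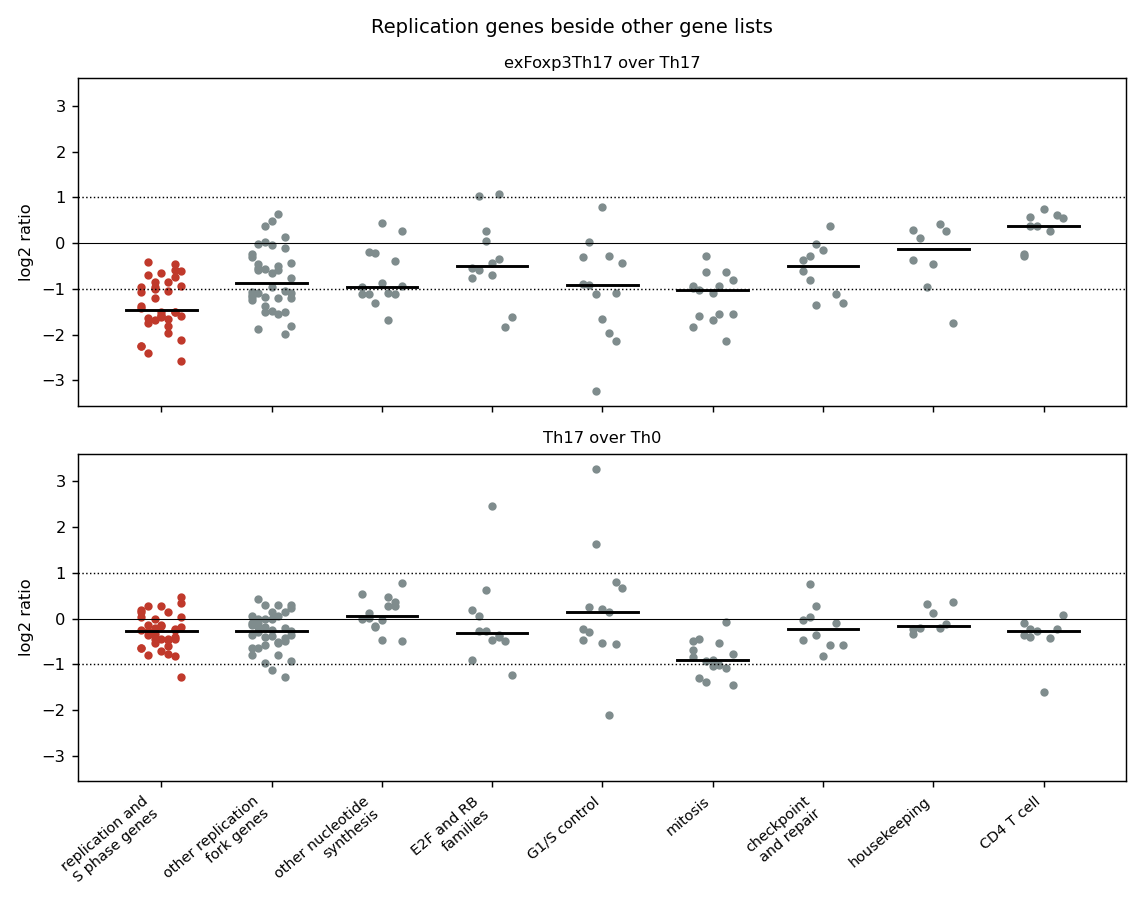
Log2 ratio of each gene (points) and the median (black line) for the 36 replication genes (red) and 8 other lists (grey), in exFoxp3Th17 over Th17 (upper panel) and Th17 over Th0 (lower panel), with dotted lines at 2-fold. In the upper panel the replication genes have a median of -1.46 and mitosis genes of -1.02; in the lower panel these are -0.27 and -0.91.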

How the data were processed

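Total RNA of 4 sorted populations was labelled with biotin and hybridised to Affymetrix arrays, 1 array each, per the labels. The authors deposited signal intensity on a linear scale. MAS5 is the tool that the submitters' processing notes name, without a version. After the lowest and highest 2% of probe sets were left out, the mean of each array was 100.0, so the authors' scaling was kept. MAS5 summarises each probe set on its own array, so dim probe sets are noisy.

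Of 45101 probe sets, 34945 were tied to 1 gene, 932 to several and 9160 to none here, and 64 are controls. Names came from the platform annotation, updated by gene identifier to RefSeq, and probe sets with several symbols named no gene. The 36 measured genes of the list have 81 probe sets, 28 of the genes more than 1. Ratios were computed with Python 3.11.15, numpy 2.4.6 and pandas 2.3.3. The calling step was run on simulated arrays with known folds, which does not measure how reliable the 2-fold calls are here. Where 1 array lay below the floor, the fold is a bound, written "at least". The number of arrays limits the precision.

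All genes of the list are described. From the 12 further lists, of 146 genes with 135 measured, called genes with large folds and marker genes above the floor were named. Not every called gene of these lists is named. The members and lists were chosen with earlier results of these data known. Alternatives covered the floor, the scaling, the probe set and the threshold.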

Additional observations from a re-analysis of the deposited data

How the results depend on the processing

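Over the 7 alternatives that kept the 2-fold threshold, the genes lower in exFoxp3Th17 numbered 20 to 26 of 36 against Th17 and 30 to 36 against Treg, and the log2 ratio was below 0 for all 36 in both comparisons. The medians ranged between -1.52 and -1.08 against Th17 and between -2.05 and -1.65 against Treg. Over all genes, 5.4% to 8.0% were lower than in Th17 and 8.07% to 11.0% lower than in Treg under these alternatives. With the mean of the probe sets the counts were the lowest, 20 and 30. A 3-fold threshold left 14 genes lower than in Th17 and 26 lower than in Treg, 0 lower in Th17 against Th0 and 0 higher in Treg against Th0. With probe sets of the _x_at and _s_at kinds left out, 2 genes were lower in Th17 than in Th0, where 7.04% of all genes were. The single higher call in Treg against Th0 was lost with the floor as a pseudocount (0) and under quantile normalization (0), and became 2 with equal medians of expressed probe sets. Over all genes, calls of higher and lower at 3-fold numbered 304 and 341 (880 and 856 at 2-fold) in exFoxp3Th17 against Th17, 555 and 539 (1328 and 1170) against Treg, 475 and 275 (968 and 810) in Th17 against Th0, and 301 and 169 (654 and 582) in Treg against Th0. At 0.5 times the floor, 1221 genes were lower in Th17 and 888 in Treg than in Th0. No ratio of a called gene changed sign. Genes near the floor (Orc1, Tyms, E2f1) have only bounds. No paired analysis was possible because each population has 1 array. One array per population leaves no measure of variation between cultures, and sex-linked RNA differs with exFoxp3Th17.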

Other observations

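Of 13 genes of G1/S control above the floor, 2 were higher and 1 lower in Th17 than in Th0 and 10 were uncalled, with a median log2 ratio of 0.15. Over all genes 8.22% were higher and 6.88% lower in this comparison. Cdkn1a, the cyclin-dependent kinase inhibitor p21, had signals of 76.9 in exFoxp3Th17, 726.7 in Th17, 433.7 in Treg and 74.9 in Th0 cells, so it was 9.7-fold higher in Th17 than in Th0 and 9.46-fold lower in exFoxp3Th17 than in Th17. Cdkn2c, the inhibitor p18, was 4.33-fold lower in Th17 than in Th0 (181.1 in Th17 against 785.1 in Th0), and 4.44-fold lower in exFoxp3Th17 than in Treg (149.4 in exFoxp3Th17 against 663.8 in Treg). Cdk6, a kinase that acts with D-type cyclins, was 3.09-fold higher in Th17 than in Th0 and 2.16-fold lower in exFoxp3Th17 than in Th17. Cdk6 was also 2.05-fold higher in Treg than in Th0. Myc was 4.44-fold lower in exFoxp3Th17 than in Th17 (222.2 in exFoxp3Th17 against 986.1 in Th17) and 2.37-fold lower than in Treg. Of D-type cyclins, Ccnd2 and Ccnd3 were lower in exFoxp3Th17 than in Th17 by 3.15-fold and 3.89-fold, and Ccnd1 lay below the floor on all 4 arrays. E2f5, an E2F factor from the list of E2F and RB families, was 5.49-fold higher in Th17 than in Th0 and uncalled between exFoxp3Th17 and Th17. It was also 2.58-fold higher in Treg than in Th0. In all, 6 of the 13 genes of G1/S control were lower in exFoxp3Th17 than in Th17 and 7 uncalled, with a median log2 ratio of -0.92. Over all genes 7.27% were lower in that comparison.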
